A study of Mus musculus with 12 samples.

Results

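ETV6, the ETS protein that supplies the front part of the ETV6-RUNX1 fusion, was followed together with 9 other ETS factors of blood cells: Etv3, Spi1, Fli1, Erg, Ets1, Ets2, Gabpa, Elf1 and Elk3. The 10 genes were taken by symbol, by a rule that uses no measured value but was written with earlier results of these data known. Each matched a single gene ID among the 40481 genes of the deposited table. Proteins of the ETS family share a DNA-binding domain that reads a GGAA core, with flanking bases and partner proteins setting where each member acts. ETV6 is a repressor that pairs with itself through a pointed domain and is needed for blood stem cells to persist in adult marrow. ETV6-RUNX1, made by a chromosome translocation in childhood B-cell leukemia, keeps the pointed domain of ETV6 but lacks its ETS domain, and binds DNA through the Runt domain of RUNX1. Most of the other members activate genes, in the stem cells themselves (FLI1, ERG) or in myeloid, lymphoid and megakaryocyte cells that come from them.

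Total RNA came from hematopoietic stem cells (HSCs) that were sorted out of E14.5 (embryonic day) fetal liver, or out of marrow from mice 8 weeks old. Donor mice were either wild type (WT) or iE/R, the labels' name for mice with an ETV6-RUNX1 construct that can be induced. Cells of all 4 groups, WT included, were grown ex vivo for 3 days under conditions that expand HSCs, with doxycycline, the inducing drug, at 1 µg/mL. Each combination of genotype and source had 3 libraries, 12 in all, called replicates 1 to 3 below. The sources used here do not give the promoter or the cells that drive the construct, the sorting markers, the sex of the animals, or whether the replicates came from separate animals or cultures. The p-values therefore measure the spread between these libraries, which may be technical.

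Library totals were 32.3 to 64.5 M reads, and 13012 to 13750 genes reached a CPM (read count scaled by the library total) of 1 in each library. Ets2, the least abundant member, still had 338 reads in its lowest library, so counting error was small for all 10 genes. The 12 HSC markers examined were all measured, with summed levels of 2082 to 3014 CPM in WT marrow, 3308 to 3657 in ETV6-RUNX1 marrow, 1874 to 2261 in WT fetal liver and 4525 to 4710 in ETV6-RUNX1 fetal liver. Of 10 lymphoid markers, 7 were under 1 CPM in every library, among them Cd3e and Rag1, and Lck was at 15.8 to 24.9 CPM. Of 7 hepatoblast markers, 3 were under 1 CPM in every library, among them Alb, while Afp was at 13.01 to 36.5 CPM and Apoa1 and Hnf4a exceeded 1 CPM in most WT libraries. WT marrow replicate 1 stood furthest from its group: the median gene differed by 0.30 on the log2 scale from the mean of the other replicates, against 0.15 to 0.25 for the other 11 libraries. It also had the highest values of the granulocyte genes S100a8 (49.4 CPM), S100a9 (23.2) and Elane (17.3) of the 12 libraries. WT marrow replicate 2 had 12.0, 6.15 and 0.039 CPM, and replicate 3 had 0.12, 0 and 0.22. Itgam went the other way, at 1.62 CPM against 5.71 and 2.42. The part of these genes in that distance was not tested. The share of reads on processed pseudogenes was 1.33 to 2.06% in ETV6-RUNX1 fetal liver and 1.77 to 2.53% in WT fetal liver, and 2.29 to 2.74% in ETV6-RUNX1 marrow and 1.72 to 2.39% in WT marrow. Xist was at 51.7 to 89.3 CPM in the fetal liver libraries and at 0.175 to 1.27 CPM in the marrow libraries, so source and the makeup of the libraries by sex cannot be told apart in comparisons of source. In fetal liver, genes of the Y chromosome also differed by genotype. Ddx3y was at 23.5 to 41.5 CPM in WT and 69.1 to 75.2 with ETV6-RUNX1, and Uty at 9.75 to 18.7 and 41.5 to 47.0. Xist overlapped between these genotypes, as did Ddx3y and Uty in marrow. Genotype and makeup by sex therefore cannot be told apart in fetal liver either. In bulk RNA, a larger number of cells that express a gene and more RNA per cell cannot be told apart.

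ETS genes can carry ETS sites of their own, so the DNA just upstream of the members was read for the family's core. RefSeq (GRCm38.p6) gave upstream windows for 7 of the 10 members, in 10 windows; Spi1, Fli1 and Ets1 had none. Only windows free of annotated exon bases could be shown. Etv6, Erg and Elk3 were taken from these because they differ in role. Etv6 is the fusion's parent, Erg a stem cell activator, and Elk3 a factor of the ERK pathway. For Erg, which has 3 windows at separate starts, the one at the outermost start is shown. Each holds the 250 bases before an annotated start, written 5′ to 3′ on the gene's strand, with GGAA or its reverse complement TTCC in capitals.
Etv6, chr6:134035450-134035699, plus strand: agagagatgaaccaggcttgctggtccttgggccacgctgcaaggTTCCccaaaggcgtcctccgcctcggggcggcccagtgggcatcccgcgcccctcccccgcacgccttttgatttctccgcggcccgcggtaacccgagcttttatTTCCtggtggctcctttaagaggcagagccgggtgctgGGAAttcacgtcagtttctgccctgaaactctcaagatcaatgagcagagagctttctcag
Erg, outermost start, chr16:95586594-95586843, minus strand: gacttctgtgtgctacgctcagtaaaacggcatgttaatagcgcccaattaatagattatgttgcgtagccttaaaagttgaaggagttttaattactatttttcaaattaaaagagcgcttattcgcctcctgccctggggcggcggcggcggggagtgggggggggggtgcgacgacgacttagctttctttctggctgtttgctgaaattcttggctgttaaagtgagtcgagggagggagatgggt
Elk3, chr10:93311160-93311409, minus strand: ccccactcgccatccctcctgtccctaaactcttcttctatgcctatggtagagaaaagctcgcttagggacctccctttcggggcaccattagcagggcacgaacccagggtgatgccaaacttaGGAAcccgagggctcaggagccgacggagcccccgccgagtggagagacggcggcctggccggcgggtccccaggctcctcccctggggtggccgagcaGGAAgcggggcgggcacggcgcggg

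The Etv6 window held 3 cores, the Elk3 window 2 and the Erg window shown 0. The other windows of Erg, at starts inside the gene, held 4 and 2 cores. Etv3 had 6, Gabpa 5 and Ets2 1, and the windows of Elf1 had 2 and 0. All 250 bases of the Gabpa and Ets2 windows, and of the Elf1 window with 2 cores, lay in annotated exons. In the Etv3 window 171 bases did. The core is short: 93.45% of the 32851 RefSeq windows held it on one strand or the other, with a median of 3 per window. The longer motifs searched on both strands were an ETS site, CCGGAAGT (2.877% of windows), a RUNX site, TGTGGT (14.05%), an interferon-stimulated response element (2.977%) and an ETS-IRF composite element (2.301%). The ETS site and the composite contain the core. These 4 motifs had no match in any of the 10 member windows. The core was added to the search after the longer motifs had given no match.

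Fli1 was the most abundant member in all 4 groups, and Ets2 the least, when levels were set per kilobase (kb) of exon. The mean level of Fli1 was 134.6 CPM per kb in WT marrow, 180.6 in ETV6-RUNX1 marrow, 137.5 in WT fetal liver and 215.8 in ETV6-RUNX1 fetal liver. It made up 50.8%, 53.0%, 56.1% and 56.7% of the summed CPM per kb of the 18 ETS genes tested, in the same order. Elf1, Etv6 and Erg held the next 3 places in every group, at 11.7 to 41.7 CPM per kb. Elf1 and Etv6 changed places in ETV6-RUNX1 marrow, where their libraries overlapped, as they did in WT marrow. Per kb of the longest transcript, Elf1 stayed above Etv6 in ETV6-RUNX1 marrow, so this change of places depends on the length used. In WT fetal liver, Spi1 (4.31 CPM per kb), Etv3 (2.95) and Ets1 (2.76) all lay below Gabpa (5.24), and in ETV6-RUNX1 fetal liver all 3 lay above it (11.8, 6.26 and 6.91 against 5.64). Neighbours whose libraries overlapped in ETV6-RUNX1 fetal liver were Elk3 and Spi1, Ets1 and Etv3, and Etv3 and Gabpa, so their order is not resolved. In WT fetal liver the libraries of Gabpa and Spi1 overlapped too, as did those of Etv3 and Ets1.

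**Figure D1:**
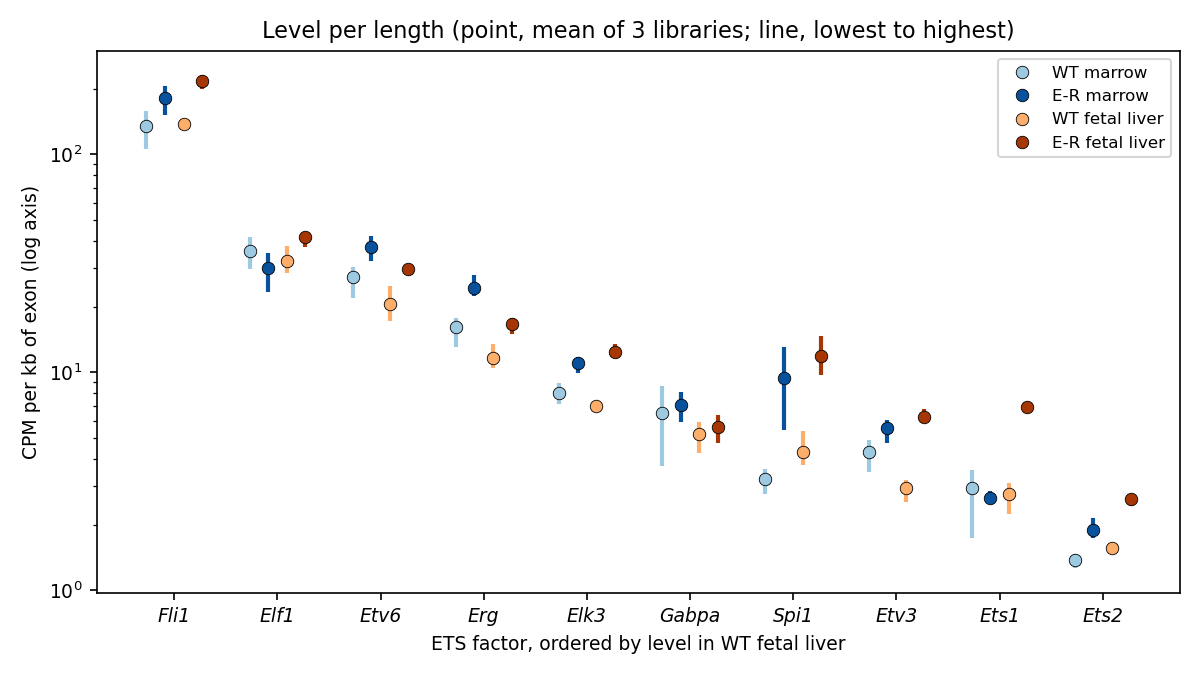
Level of the 10 ETS genes in CPM per kb of exon (log axis) in the 4 groups. Points are means of the 3 libraries of a group, and lines run from the lowest library to the highest. Fli1 lies highest and Ets2 lowest in each group, while Spi1, Etv3 and Ets1 lie above Gabpa in ETV6-RUNX1 fetal liver by their means.

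In fetal liver HSCs, 8 of the 10 members were higher with ETV6-RUNX1 than in WT and 0 were lower, by limma on log2(CPM + 1) with a Benjamini-Hochberg adjusted p under 0.05. Those that rose were Etv6, Etv3, Spi1, Fli1, Erg, Ets1, Ets2 and Elk3, and all 3 ETV6-RUNX1 libraries of each lay above all 3 WT libraries. Of all 14271 genes tested, 43.1% were called in this comparison, 24.8% as higher and 18.3% as lower, and 32.3% had all ETV6-RUNX1 libraries above all WT libraries. The median log2 fold change was 0.67 over the members and 0.08 over all genes. In marrow HSCs, 3 of the 10 rose (Spi1, Erg and Elk3), beside a background of 19.4% of genes called, 14.4% as higher. The member median there was 0.42, against 0.13 over all genes, and 5 of 10 members had all ETV6-RUNX1 libraries above all WT libraries, as did 23.6% of genes. Size factors by the median of ratios took the all-gene median in marrow from 0.13 to 0.01 and left 1 of the 10 members called, Spi1. The calls over all genes went from 2059 higher and 704 lower to 1480 higher and 1313 lower with those factors. In fetal liver, quantile normalization turned the split from 3544 higher and 2607 lower to 2717 higher and 3746 lower.

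**Figure D2:**
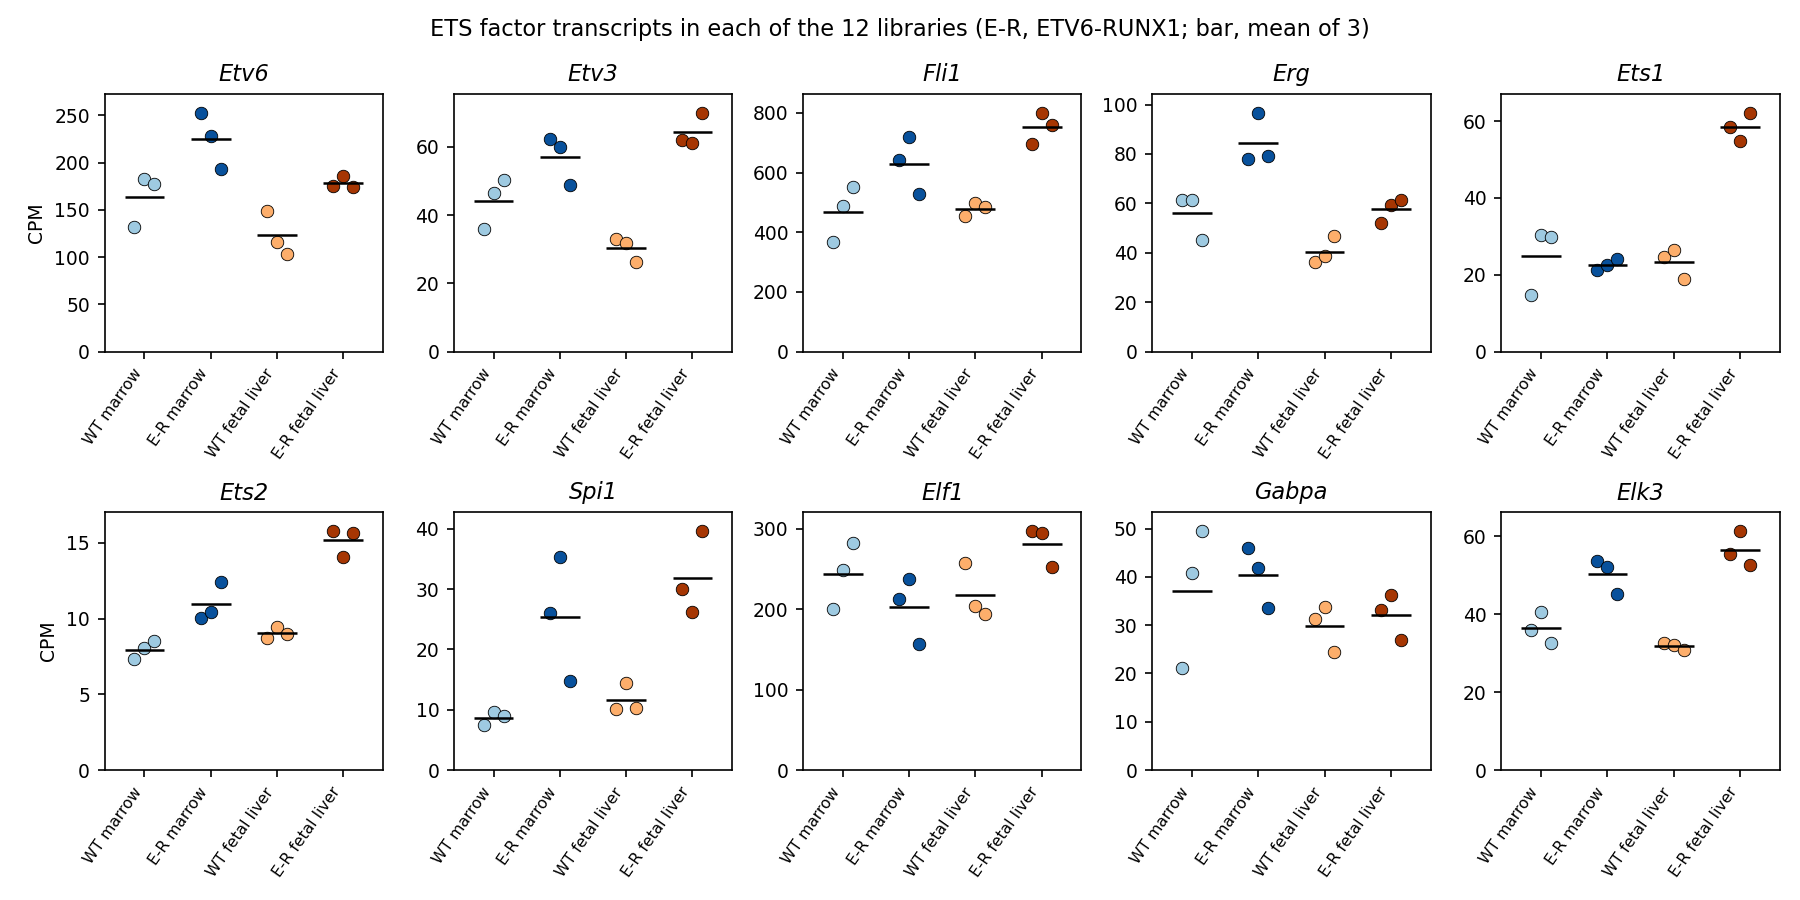
CPM of each ETS gene in the 12 libraries, with the vertical axis starting at 0; points are libraries and bars group means. Spi1 and Elk3 lie higher in all ETV6-RUNX1 libraries of either source, while the 3 fetal liver ETV6-RUNX1 libraries of Ets1 (54.96 to 62.2 CPM) stand above the other 9.

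**Figure D3:**
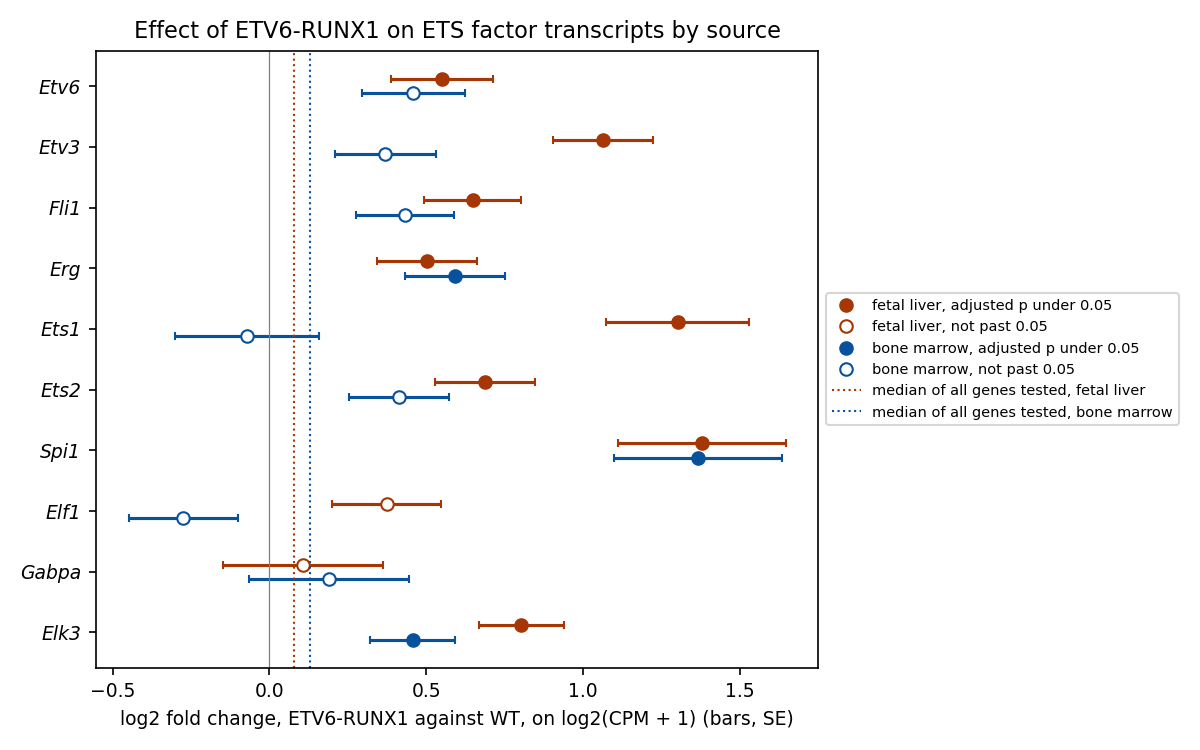
Log2 fold change of the 10 genes for ETV6-RUNX1 against WT, on log2(CPM + 1), with standard errors, in fetal liver and in marrow. Spi1 lies at 1.38 and 1.37 in the 2 sources, and Ets1 at 1.30 and -0.07.

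Etv6 (ENSMUSG00000030199; GRCm38 chromosome 6, 134035700 to 134270158, plus strand) had 149, 117 and 103 CPM in WT fetal liver replicates 1 to 3, and 176, 185 and 174 in ETV6-RUNX1 fetal liver. All 3 fusion libraries were above the WT libraries, the closest pair being 149 and 174. The log2 fold change was 0.55 ± 0.16 (SE, limma adjusted p = 0.0146, n = 3 per group). In marrow Etv6 was at 132, 183 and 177 CPM in WT and at 253, 228 and 193 with ETV6-RUNX1. These groups also did not overlap, but the difference of 0.46 ± 0.16 missed the threshold (adjusted p = 0.0633). From the highest group mean to the lowest the order was ETV6-RUNX1 marrow (224.7 ± 30.1 CPM, SD), ETV6-RUNX1 fetal liver (178 ± 6.09), WT marrow (164 ± 28.1) and WT fetal liver (123 ± 23.8). The libraries of WT marrow overlapped with those of both fetal liver groups, so these neighbours in the order are not resolved.

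The fetal liver rise of Etv6 did not pass without WT fetal liver replicate 3 (0.43, adjusted p = 0.0772) or with the processed pseudogene share as a covariate (0.29, adjusted p = 0.123), in a range of 0.00548 to 0.123 over 22 alternatives. In marrow it passed under 4 of 22, among them without ETV6-RUNX1 marrow replicate 3 (0.56, adjusted p = 0.0392) and without WT fetal liver replicate 1 (0.46, adjusted p = 0.0495), in a range of 0.00423 to 0.20. The table gives 1 value per gene, so reads of a fusion transcript that match Etv6 and reads of the endogenous gene cannot be told apart. An antisense gene, Gm17089, shares 135 bases (2.26%) of the Etv6 exons and did not exceed 5.7 CPM.

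Etv3 (ENSMUSG00000003382; chromosome 3, 87525407 to 87540156, plus strand), a repressor related to ERF and linked to growth arrest of macrophages, had 33.0, 31.9 and 26.2 CPM in WT fetal liver and 62.0, 61.0 and 70.1 with ETV6-RUNX1. Every fusion library was well above every WT library. The ratio of group means was 2.12, and the log2 fold change 1.06 ± 0.16 (adjusted p = 0.000132) passed under all 22 alternatives. Marrow values were 35.8, 46.4 and 50.3 CPM in WT and 62.4, 60.1 and 48.9 with ETV6-RUNX1. There the groups overlapped, with ETV6-RUNX1 replicate 3 below WT replicate 3, and the difference of 0.37 ± 0.16 did not pass (adjusted p = 0.119). With the pseudogene share as a covariate the marrow difference was 0.53 (adjusted p = 0.0346).

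Fli1 (ENSMUSG00000016087; chromosome 9, 32422204 to 32542861, minus strand), which activates megakaryocyte genes and forms part of the stem cell factor complexes, was at 455, 499 and 484 CPM in WT fetal liver and at 695, 801 and 761 with ETV6-RUNX1. The 3 WT libraries lay close together and under all fusion libraries. Fli1 rose by 0.65 ± 0.16 on the log2 scale (adjusted p = 0.00409), a ratio of means of 1.57, and did so under all 22 alternatives. WT marrow libraries were at 367, 488 and 553 CPM and ETV6-RUNX1 marrow libraries at 641, 719 and 529. ETV6-RUNX1 replicate 3 fell inside the WT range, and the difference was 0.43 ± 0.16 (adjusted p = 0.0652). It passed without that library (0.55, adjusted p = 0.0297), without WT marrow replicate 3 (0.56, adjusted p = 0.0366) and under 2 of the other 20 alternatives, in a range of 0.0224 to 0.222.

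Erg (ENSMUSG00000040732; chromosome 16, 95359169 to 95586593, minus strand) encodes the close relative of FLI1 that blood stem cells need for self-renewal. Its fetal liver values were 36.1, 38.5 and 46.8 CPM in WT and 52.1, 59.3 and 61.3 with ETV6-RUNX1, without overlap. Marrow means were higher in both genotypes, with libraries at 61.4, 61.4 and 45.2 CPM in WT and 77.8, 96.8 and 79.3 with ETV6-RUNX1, again without overlap. Erg rose by 0.50 ± 0.16 in fetal liver (adjusted p = 0.0204) and by 0.59 ± 0.16 in marrow (adjusted p = 0.0196). Each call held under 14 of 22 alternatives. In fetal liver the size factors (0.43, adjusted p = 0.059) and leaving out WT replicate 1 (0.0739) or 2 (0.0647) or ETV6-RUNX1 replicate 2 (0.0579) or 3 (0.0639) put the adjusted p over the threshold, in a range of 0.0133 to 0.116. In marrow the size factors (0.45, adjusted p = 0.0835) and leaving out WT replicate 3 (0.0765) or ETV6-RUNX1 replicate 2 (0.0873) did so, in a range of 0.0186 to 0.0974. Neither edgeR nor DESeq2 called Erg in fetal liver (adjusted p = 0.0797 and 0.0636) or in marrow (0.0974 and 0.0822). Quantile normalization lost both calls too (0.116 and 0.0579). In marrow, so did fitting only the 6 libraries compared (0.0593) and the processed pseudogene covariate (0.0564).

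Ets1 (ENSMUSG00000032035; chromosome 9, 32636221 to 32757820, plus strand), an activator best known from T, B and NK cells, lies 93359 bases from Fli1. It had 24.6, 26.5 and 19.0 CPM in WT fetal liver and 58.6, 54.96 and 62.2 with ETV6-RUNX1. In marrow it had 14.7, 30.3 and 29.8 CPM in WT and 21.2, 22.5 and 24.2 with ETV6-RUNX1. The 3 ETV6-RUNX1 fetal liver libraries stood above the other 9, and the marrow groups overlapped, the fusion libraries lying between the lowest WT value and the higher ones. Ets1 rose in fetal liver by 1.30 ± 0.23 (adjusted p = 0.000448), a ratio of means of 2.51, under all 22 alternatives. The marrow difference was -0.07 ± 0.23 (adjusted p = 0.851).

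The effect of ETV6-RUNX1 on Ets1 was larger in fetal liver than in marrow by 1.37 ± 0.32 on the log2 scale (limma interaction, adjusted p = 0.0177). Ets1 was 1 of 10 members called for this difference of effects, beside 9.19% of all genes (5.56% in the same direction, 794 genes against 517 in the other, and 995 against 353 with the size factors). The call held under 17 of 21 alternatives, in a range of 7.3e-05 to 0.253. It was lost without a filter on low values (adjusted p = 0.0633), without WT marrow replicate 2 (1.204, adjusted p = 0.0517), without WT fetal liver replicate 3 (1.24, adjusted p = 0.0511), and with the processed pseudogene share as a covariate (0.86, adjusted p = 0.253).

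Etv3 had the next largest difference of effects, 0.70 ± 0.23 (adjusted p = 0.0686). It passed under 5 of 21 alternatives, among them the size factors (0.76, adjusted p = 0.0243), edgeR (0.77, adjusted p = 0.0322), DESeq2 (0.78, adjusted p = 0.00553) and leaving out WT marrow replicate 1 (0.84, adjusted p = 0.0174). For Elf1 the difference of effects was 0.65 ± 0.25 (adjusted p = 0.112), and it passed without WT marrow replicate 1 (0.78, adjusted p = 0.0372) and by DESeq2 (0.71, adjusted p = 0.0434). With the pseudogene share as a covariate it was 0.028 (adjusted p = 0.965, the highest of its 21 alternatives). Spi1 (0.01 ± 0.38), Etv6 (0.09 ± 0.23) and Erg (-0.09 ± 0.23) had differences of effects near 0, with standard errors that leave room for differences of that size in either direction.

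Ets2 (ENSMUSG00000022895; chromosome 16, 95702075 to 95721051, plus strand), which ERK phosphorylates and which is a neighbour of Erg on the same chromosome, had 8.71, 9.45 and 8.96 CPM in WT fetal liver and 15.8, 14.1 and 15.7 with ETV6-RUNX1. Its replicates were tight and the groups lay far apart. The rise of 0.69 ± 0.16 (adjusted p = 0.00334) held under 21 of 22 alternatives, the exception being quantile normalization (0.40, adjusted p = 0.062). In marrow it had 7.31, 8.06 and 8.50 CPM in WT and 10.02, 10.4 and 12.4 with ETV6-RUNX1. These libraries did not overlap either, but the difference of 0.41 ± 0.16 did not pass (adjusted p = 0.0832).

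Spi1 (ENSMUSG00000002111; chromosome 2, 91082390 to 91115756, plus strand) encodes PU.1, which directs myeloid and B-cell development and whose dose sets the choice between lineages. WT fetal liver libraries had 10.1, 14.51 and 10.3 CPM and ETV6-RUNX1 fetal liver libraries 29.9, 26.2 and 39.6. WT marrow libraries had 7.48, 9.70 and 8.92 CPM and ETV6-RUNX1 marrow libraries 26.0, 35.4 and 14.7. Neither source showed overlap, although ETV6-RUNX1 marrow replicate 3 was the lowest of its group by far. The rise was 1.38 ± 0.27 in fetal liver (adjusted p = 0.000953) and 1.37 ± 0.27 in marrow (adjusted p = 0.00386), ratios of means of 2.74 and 2.92. Spi1 passed under all 22 alternatives in each source, the only member to do so in marrow.

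Elf1 (ENSMUSG00000036461; chromosome 14, 79481194 to 79582494, plus strand), an activator of blood and endothelial genes, had 257, 203 and 193 CPM in WT fetal liver and 297, 295 and 252 with ETV6-RUNX1. WT replicate 1 exceeded the lowest fusion library, and the difference of 0.37 ± 0.17 did not pass (adjusted p = 0.0981). It passed when only the 6 fetal liver libraries were fitted (adjusted p = 0.0431), in a range over 22 alternatives of 0.0431 to 0.735. Marrow values were 199.7, 249 and 282 CPM in WT and 213, 237 and 157 with ETV6-RUNX1, an overlapping pair of groups with a difference of -0.27 ± 0.17 (adjusted p = 0.284). Exons of Wbp4 on the other strand share 327 bases (4.85%) of Elf1's exons, and the use of strand in counting is not given in the sources used here.

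Gabpa (ENSMUSG00000008976; chromosome 16, 84834925 to 84863779, plus strand), the DNA-binding subunit of GABP, which drives genes of mitochondria and basic cell functions, had 31.3, 33.7 and 24.3 CPM in WT fetal liver and 33.1, 36.3 and 26.9 with ETV6-RUNX1. Marrow libraries had 21.2, 40.7 and 49.5 CPM in WT and 46.0, 41.8 and 33.6 with ETV6-RUNX1. Both pairs of groups overlapped, and WT marrow replicate 1 was the lowest of all 12 libraries. The differences were 0.11 ± 0.25 in fetal liver (adjusted p = 0.761) and 0.19 ± 0.25 in marrow (adjusted p = 0.633), and their signs depended on the scaling: the fetal liver value was -0.10 after quantile normalization and the marrow value -0.016 by edgeR. Without WT marrow replicate 1 the marrow value was -0.16, and with the pseudogene share as a covariate it was 0.64 (adjusted p = 0.0441, in a range of 0.0441 to 0.99). Exons of Atp5j on the other strand share 397 bases (6.98%) of Gabpa's exons.

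Elk3 (ENSMUSG00000008398; chromosome 10, 93247414 to 93311135, minus strand), which binds with serum response factor (SRF) and represses until ERK phosphorylates it, had 32.6, 32.2 and 30.9 CPM in WT fetal liver and 55.4, 61.4 and 52.7 with ETV6-RUNX1. The WT values were nearly equal and all fusion values were higher. Elk3 rose by 0.80 ± 0.13 (adjusted p = 0.000315), a ratio of means of 1.77, under all 22 alternatives. In marrow it had 35.9, 40.7 and 32.7 CPM in WT and 53.7, 52.1 and 45.1 with ETV6-RUNX1, without overlap, and rose by 0.46 ± 0.13 (adjusted p = 0.0296). The marrow call held under 13 of 22 alternatives, in a range of 0.0138 to 0.122. It was lost with the size factors (0.32, adjusted p = 0.11) and without WT replicate 1 (0.0564) or 3 (0.0962) or ETV6-RUNX1 replicate 1 (0.102) or 2 (0.0915). Neither edgeR (adjusted p = 0.112) nor DESeq2 (0.0962) called Elk3 in marrow. Quantile normalization (0.122) and fitting only the 6 libraries compared (0.0998) lost the call too. Exons of Cdk17 on the other strand share 316 bases (6.95%) of Elk3's exons.

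**Figure D4:**
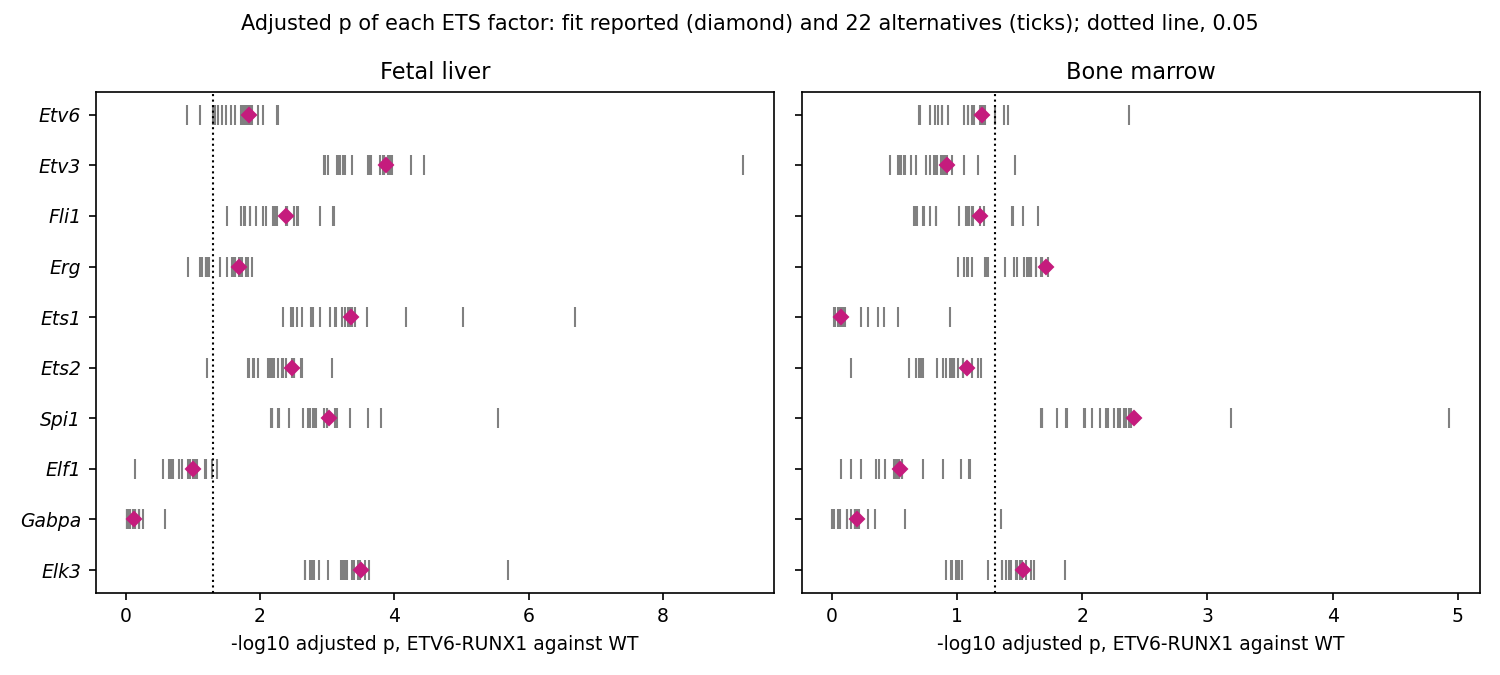
The horizontal axis gives -log10 of the adjusted p of each ETS gene for ETV6-RUNX1 against WT, in fetal liver and in marrow; diamonds are the reported fit, ticks its 22 alternatives, and the dotted line 0.05. Etv3, Spi1, Fli1, Ets1 and Elk3 lie past the line under all settings in fetal liver, and Spi1 in marrow, while Erg has ticks on both sides in either source.

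Between the sources, 0 of 10 members passed in WT cells by limma, beside 11.1% of all genes called (482 higher and 1109 lower in fetal liver, 651 and 948 with the size factors). Unadjusted, 3 had a p under 0.05: Etv3 (-0.52 for fetal liver against marrow, adjusted p = 0.0515), Erg (-0.45, adjusted p = 0.0862) and Etv6 (-0.41, adjusted p = 0.128). DESeq2 called 1, Etv3, and edgeR 0. Without WT marrow replicate 1, 3 were called, Etv3 (-0.66, adjusted p = 0.0113), Etv6 (-0.56, adjusted p = 0.0237) and Gabpa (-0.59, adjusted p = 0.0468). Erg passed without WT marrow replicate 3 (-0.60, adjusted p = 0.0355), and Etv3 also without ETV6-RUNX1 marrow replicate 3 (-0.52, adjusted p = 0.045). All WT fetal liver libraries were above all WT marrow libraries for Spi1 and Ets2, as for 10.6% of genes, and below them for Etv3 and Elk3, as for 18.9%.

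In ETV6-RUNX1 cells, 3 of 10 members differed between fetal liver and marrow, beside 28.6% of all genes called (10.4% higher and 18.2% lower in fetal liver). Ets1 was higher in fetal liver by 1.34 ± 0.23 (adjusted p = 0.000617) under all 22 alternatives; this comparison shares the ETV6-RUNX1 libraries with those above. Erg was lower by -0.54 ± 0.16 (adjusted p = 0.0202), and the call was lost with the size factors (-0.38, adjusted p = 0.131) and without ETV6-RUNX1 marrow replicate 2 (0.0759) or fetal liver replicate 1 (0.085). Neither edgeR (adjusted p = 0.124) nor DESeq2 (0.13) called Erg here. Quantile normalization (0.0546) and the processed pseudogene covariate (0.24) lost the call too. Elf1 was higher by 0.49 ± 0.17 (adjusted p = 0.0483), close to the threshold, and passed under 9 of 22 alternatives, in a range of 0.00209 to 0.941. It was lost without ETV6-RUNX1 marrow replicate 1 (0.0751) or 3 (0.194), ETV6-RUNX1 fetal liver replicate 1 (0.138) or 2 (0.127), WT fetal liver replicate 2 (0.0621) or 3 (0.0537), or WT marrow replicate 2 (0.0605). Ets2 missed the threshold (0.44, adjusted p = 0.0528) and passed under 8 of 22, among them without WT marrow replicate 1 (0.0498) and without ETV6-RUNX1 marrow replicate 3 (0.0447). The all-gene median here was -0.16, and -0.01 with the size factors, which turned the split of calls from 1484 higher and 2604 lower to 2032 and 1489.

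Genes whose profile over the 12 libraries was most like that of a member were ranked by the root mean square (RMS) difference of their log2(CPM + 1) values, each centred on its own mean, among 9898 genes. Nearest to Etv6 were Baz2b (0.095), Cep250 (0.102), Ash1l (0.109), Phf20l1 (0.113) and Sec14l1 (0.114), against a spread of Etv6 itself of 0.358. The nearest member to Etv6 was Etv3, at 0.230 and rank 691. For the other members the nearest genes were Tiparp for Etv3 (0.069), Pou2f2 for Spi1 (0.196), Actr3 for Fli1 (0.099), Gpr45 for Erg (0.130), Bcl2l1 for Ets1 (0.204), Rnf145 for Ets2 (0.095), Lnx2 for Gabpa (0.089), Zfp948 for Elf1 (0.125) and Irf2 for Elk3 (0.084). The points share libraries and depth, so these likenesses are descriptions.

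Of 16 other genes of the family, 8 were abundant enough to test, and 4 of these rose in fetal liver, with a median of 0.71. Over all genes tested, 24.8% rose there, with a median of 0.08. Spic, which encodes a PU.1 relative known from red pulp macrophages, had 0.09, 0.05 and 0.09 CPM in WT fetal liver and 22.1, 10.6 and 21.1 with ETV6-RUNX1. In marrow it had 0.80, 1.75 and 1.30 CPM in WT and 6.13, 26.5 and 11.3 with ETV6-RUNX1. It rose by 4.07 ± 0.39 (adjusted p = 2.28e-06) and 2.58 ± 0.39 (adjusted p = 0.000852) on log2(CPM + 1), and the WT fetal liver values were at or near the value of 3 reads (0.047 to 0.093 CPM over the libraries), so the fitted value there depends on the pseudocount. Elk4, an SRF partner like Elk3 (0.97, adjusted p = 0.000155), and Elf4, a relative of Elf1 (0.81, adjusted p = 0.00348), also rose in fetal liver, with 0.29 (adjusted p = 0.18) and 0.22 (adjusted p = 0.432) in marrow. Etv1 was at 1.49, 1.87 and 1.44 CPM in ETV6-RUNX1 fetal liver and at 0.41 or less in the other 9 libraries, a log2 fold change of 0.96. It passed the filter (1 CPM in at least 3 libraries) only through the group where it is high. Its call, 1 of the 4 above, is therefore no support for a rise. Erf, the close relative of Etv3, rose in marrow (0.66, adjusted p = 0.039) and had -0.20 in fetal liver (adjusted p = 0.463). Elk1, Elf2 and Etv5 had 0.61, -0.31 and 0.042 in fetal liver and 0.26, -0.03 and 0.14 in marrow and did not pass. Of 8 macrophage markers, C1qa, C1qb, C1qc and Cd5l stayed under 1 CPM in every library, and 3 of the 4 tested rose in fetal liver, beside 24.8% of all genes. These were Cd68, from a mean of 43.5 to 105 CPM, Vcam1, from 0.10 to 4.94 CPM, and Adgre1, from 0.032 to 1.24 CPM. Adgre1 reached 1 CPM in ETV6-RUNX1 libraries only, so it passed the filter through the genotype where it is high. The part of these markers in the Spic result was not tested.

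Genes that ETV6 and its relatives work with or act on were taken from lists drawn up with earlier results of these data known, and are given as counts. Over all genes tested, 24.8% rose and 18.3% fell in fetal liver (median 0.08), and 14.4% rose and 4.93% fell in marrow (median 0.13). Of 10 tested corepressors of ETV6 and partners of GABP, 2 fell in fetal liver, among them Hdac3 (-0.43, adjusted p = 0.0132), a histone deacetylase. In marrow 2 others rose, among them Sin3b (0.53, adjusted p = 0.0134), a scaffold of histone deacetylase complexes. The list median was 0.22 in fetal liver and 0.12 in marrow. The 2 that fell in fetal liver and the 2 that rose in marrow are near the shares over all genes. In fetal liver 0 of the 10 rose, against 24.8% of all genes. Of 5 stem cell factors that bind with ERG and FLI1, 3 rose in fetal liver, Runx1 (0.90, adjusted p = 0.000153), Lmo2 (0.64, adjusted p = 0.0029) and Tal1 (0.42, adjusted p = 0.029), and Runx1 (0.81, adjusted p = 0.00178) and Lmo2 (0.83, adjusted p = 0.00204) rose in marrow. Reads of the fusion and of endogenous Runx1 cannot be told apart, as for Etv6.

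Of 18 tested myeloid genes associated with PU.1, 13 rose and 1 fell in fetal liver (median 1.44), and 7 rose in marrow (median 0.47). Csf2rb, a cytokine receptor chain, rose by 2.36 (adjusted p = 5.83e-08) and 0.64 (adjusted p = 0.0132), and Cybb, the NADPH oxidase subunit, by 4.04 in fetal liver (adjusted p = 4.13e-06) with 0.54 in marrow (adjusted p = 0.378). Summed macrophage markers were at 40.7 to 48.9 CPM in WT and 107 to 121 in ETV6-RUNX1 fetal liver, and at 36.4 to 57.1 and 90.3 to 108 in marrow. Summed granulocyte and monocyte markers were at 423 to 534 and 676 to 871 CPM in fetal liver, and at 378 to 620 and 360 to 544 in marrow, with Ctsg under 1 CPM throughout. The members of this sum went different ways in fetal liver: Lyz2 rose from a mean of 233 to 686 CPM, and Csf1r and Itgam rose too, while the granule genes Prtn3 (188 to 30.4 CPM) and Mpo (67.4 to 10.1 CPM) fell. Both marker lists share genes with the PU.1 list, Cd68, Csf1r, Itgam, Lyz2 and Mpo among them, so the sums are no separate measure of it. Cd68 made up most of the macrophage sum. Its means were 43.5 and 105 CPM in WT and ETV6-RUNX1 fetal liver, and 42.0 and 89.7 in marrow. Mrc1 had means of 1.47 and 1.25 CPM in fetal liver and was not called. In marrow limma called 1 of the 4 tested macrophage markers, beside 19.4% of all genes. The macrophage sum was higher with ETV6-RUNX1 in both sources, as Spi1 was, and its part in the Spi1 result was not tested.

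Of 15 megakaryocyte genes associated with FLI1, 9 rose and 1 fell in fetal liver (median 1.31), and 1 fell in marrow (median -0.20). Tubb1, the platelet tubulin, rose by 2.72 in fetal liver (adjusted p = 1.22e-05) and Vwf by 1.44 (adjusted p = 0.000124). Gp9, part of the platelet receptor for von Willebrand factor, fell in both sources, by -0.84 (adjusted p = 0.00911) and -2.51 (adjusted p = 2.77e-05). Summed megakaryocyte markers were at 3118 to 4617 CPM in WT and 7339 to 8135 in ETV6-RUNX1 fetal liver, and at 1378 to 1841 and 478 to 2118 in marrow. Pf4 made up most of the fetal liver sums, with means of 2472 CPM in WT and 4816 with ETV6-RUNX1. The highest ETV6-RUNX1 marrow sum was that of replicate 2, where Pf4 was at 1217 CPM, against 224 and 149 in replicates 1 and 3. The part of these markers in the Fli1 result was not tested. Of 11 tested endothelial genes associated with ERG, 8 rose in fetal liver (median 0.91), among them Egfl7 (1.55) and Esam (0.91), and 3 in marrow (median 0.20), with Eng at 0.70 and 1.30. Summed endothelial markers went from 196 to 240 up to 372 to 483 CPM in fetal liver and from 174 to 248 up to 291 to 359 in marrow, while Cldn5, Sox17 and Stab2 were under 1 CPM in every library. The megakaryocyte and endothelial markers also share genes with the lists beside them.

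Of 14 tested genes that ERK and ELK-SRF complexes drive, 8 rose in fetal liver (median 1.03) and 3 in marrow (median 0.16), the marrow values being near those over all genes. Fos (2.24, adjusted p = 9.64e-05) and Egr2 (2.93), both immediate-early genes, were called in fetal liver, and Junb rose in both sources, by 2.44 and 2.75. Egr2 passed the filter only through its ETV6-RUNX1 fetal liver libraries, at 5.55 to 13.5 CPM. Its call, 1 of the 8 above, is therefore no support for a rise. Of 10 mitochondrial genes associated with GABP, 6 fell in fetal liver (median -0.66), among them Tfb2m (-0.88, adjusted p = 0.000509) and Cox5b (-0.78, adjusted p = 0.00141). In marrow limma called 0 of the 10, with 2 at an unadjusted p under 0.05 and 1 called by edgeR and 1 by DESeq2. All 18 interferon response genes rose in both sources, with medians of 5.48 in fetal liver and 2.20 in marrow; Oas2, a sensor of double-stranded RNA, rose by 6.39 and 2.48.

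**Figure D5:**
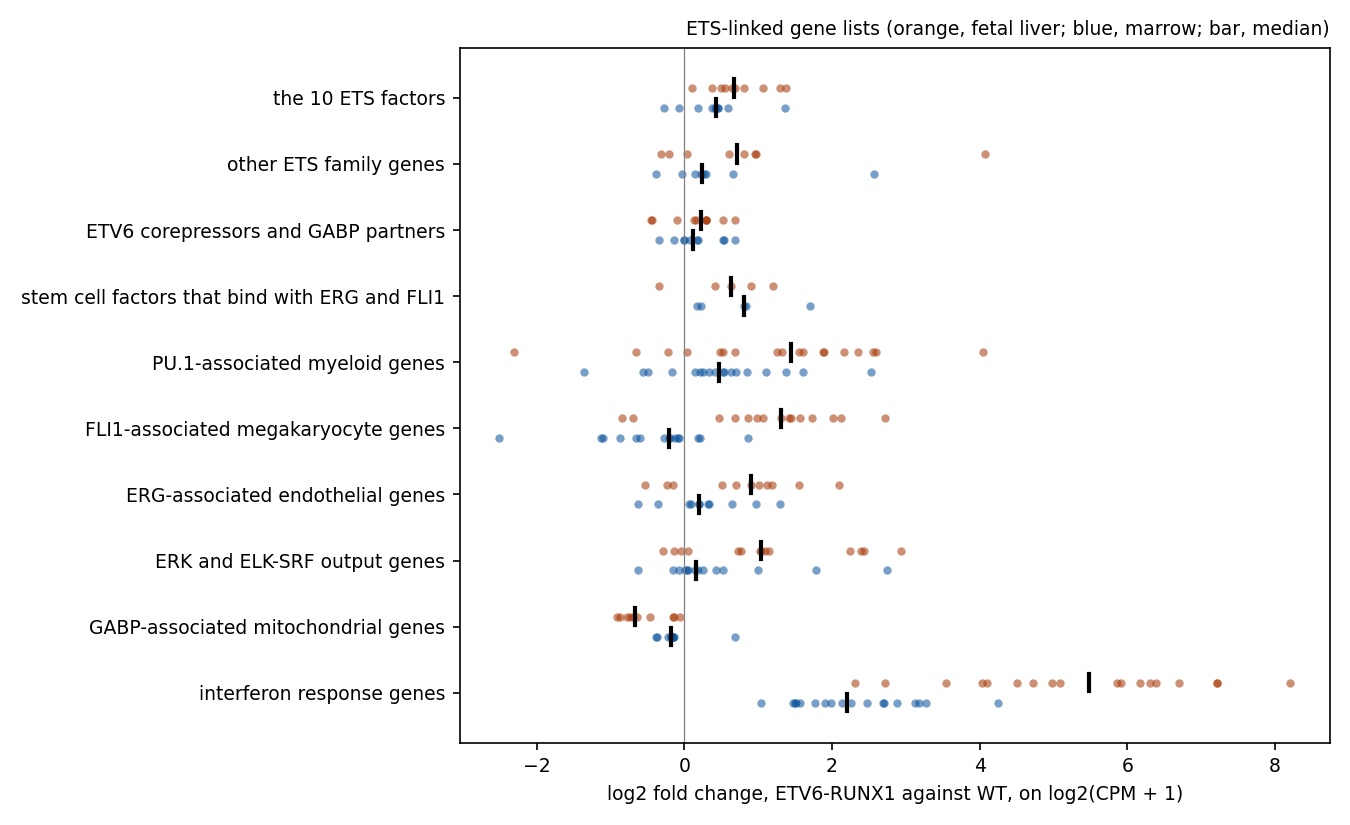
Log2 fold change of single genes, ETV6-RUNX1 against WT on log2(CPM + 1), for the 10 ETS genes and 9 lists linked to them; orange points are fetal liver, blue points marrow and bars medians. The interferon list lies farthest to the right in both sources, and the GABP-associated mitochondrial list has medians of -0.66 and -0.17.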

How the data were processed

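The authors deposited a table of CPM per gene for 12 libraries, made from total RNA with a stranded low-input kit, per the labels' protocols. The submitters' processing notes name bcl2fastq, STAR 2.5.1a, Subread, featureCounts 1.4.6-p5, Salmon 0.8.2, edgeR, limma and GRCm38; their roles, the annotation and the use of strand are not given in the sources used here. Repeated gene IDs (276 of 40757 entries, with identical values) were kept once. Positions and exon lengths are from GENCODE M21 (GRCm38), promoter windows from RefSeq.

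Genes at 1 CPM or more in at least 3 libraries (14271) were fitted as log2(CPM + 1) with limma 3.58.1 (R 4.3.3), with a mean per group and intensity trend (8 residual degrees of freedom). Fold changes on this scale understate low genes. Adjusted p-values (Benjamini-Hochberg) cover all fitted genes. Whole reads were recovered from the CPM steps (100% of values within 0.01 of a whole read) and tested with edgeR 4.0.16 (6178 genes called in fetal liver, 2739 in marrow) and DESeq2 1.42.0 (6540 and 3297). The other alternatives were another pseudocount (0.1), filters, scalings, the replicate block, only the 6 libraries compared, the processed pseudogene share as covariate, and each library left out. The code was tested on simulated data. Members and lists were chosen with earlier results of these data known. Besides the members, the text names the tested genes of the ETS family, up to 4 called genes per list and comparison with the smallest p, and the nearest profiles; a few list genes are not reported here.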

Additional observations from a re-analysis of the deposited data

Results flagged for a closer look

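A test of the difference itself (limma interaction, log2 scale) compared the fold changes for ETV6-RUNX1 in fetal liver and in marrow. The 10 genes given one by one below were called, with a higher log2 fold change in fetal liver. They are not all of the genes named above that were called. Over all genes tested, 9.19% were called for this difference, 5.56% in the same direction. List genes were named for a small p in comparisons that use these same libraries, so the number called is no separate result. Of 18 interferon response genes, 17 were called in this direction. Of 5 tested granulocyte and monocyte markers, all named above, 2 were called in this direction and 1 in the other. Among the members Ets1 was called, by 1.37 (adjusted p = 0.0177). Etv1, the other ETS gene, differed by 1.35. The associated myeloid genes Csf2rb and Cybb differed by 1.72 (adjusted p = 0.000338) and 3.50 (adjusted p = 0.00218). The megakaryocyte genes Tubb1, Vwf and Gp9 differed by 1.86 (adjusted p = 0.0187), 1.53 (adjusted p = 0.00679) and 1.66 (adjusted p = 0.00623), and Gp9 fell less in fetal liver than in marrow. The immediate-early gene Fos differed by 2.87 (adjusted p = 0.00168) and Egr2 by 2.92, and the interferon response gene Oas2 by 3.92 (adjusted p = 2.93e-05). Etv1 and Egr2 passed the filter only through ETV6-RUNX1 fetal liver, so their calls here are no support for a difference.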

How the results depend on the processing

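In fetal liver the 8 calls became 7 with size factors, by edgeR, by DESeq2 and with the pseudogene covariate, 6 with quantile normalization and 9 when only 6 libraries were fitted; leaving out 1 library gave 7 to 8. In marrow the 3 calls became 1 with size factors, 1 by edgeR, 1 by DESeq2, 1 when only 6 libraries were fitted and 6 with the pseudogene share as a covariate; leaving out 1 library gave 1 to 5. The 1 interaction call became 0 without a filter, 2 with size factors, 2 with quantile normalization, 2 by edgeR, 3 by DESeq2 and 0 with the pseudogene covariate; leaving out 1 library gave 0 to 3. Between sources, the count of 0 in WT became 1 by DESeq2 and 2 with the pseudogene covariate, and 0 to 3 without 1 library; the 3 in ETV6-RUNX1 cells became 1 to 4 without 1 library. The cause of these shifts was not tested. Deviations from the group mean had correlations of -0.44 to 0.22 between same-numbered replicates and of -0.50 to 0.66 between differently numbered ones. Deviations within a group of 3 sum to 0, so these correlations cannot show whether the numbers pair the libraries. With the replicate block 8, 3 and 1 members were called in fetal liver, marrow and the interaction, and 0 and 2 between sources. Between sources in ETV6-RUNX1 cells, Elf1 lost its call with the block (0.49, limma adjusted p = 0.0645).

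Of 1090 values of members under alternatives, 46 changed sign, none of them past the threshold. With the pseudogene covariate the interaction was -0.44 for Etv6, -0.16 for Spi1, -0.088 for Fli1 and 0.12 for Erg. With it, the marrow effect was 0.19 for Ets1 and 0.041 for Elf1, the fetal liver effect of Gabpa -0.33, and fetal liver against marrow in ETV6-RUNX1 cells -0.082 for Etv3 and -0.023 for Elf1, the only sign change of a called result. The Spi1 interaction was -0.0053 with pseudocount 0.1, -0.031 by edgeR and -0.018 by DESeq2. Fetal liver against marrow in WT for Ets1 was 0.058 with size factors, 0.089 with quantile normalization, 0.022 by edgeR, 0.015 by DESeq2 and 0.053 with the covariate. Gabpa was at -0.10 in fetal liver with quantile normalization, at -0.016 and -0.0057 in marrow by edgeR and DESeq2, and at 0.032 and 0.046 in the interaction by edgeR and DESeq2. Leaving out 1 library gave interaction values of -0.027 to 0.24 for Etv6, -0.32 to 0.28 for Spi1, -0.17 to 0.054 for Erg and -0.33 to 0.27 for Gabpa. It gave -0.40 to 0.098 for Ets1 and -0.16 to 0.43 for Gabpa in marrow, and -0.027 to 0.23 for Gabpa in fetal liver. Between sources in WT it gave -0.12 to 0.18 for Fli1, -0.36 to 0.13 for Ets1 and -0.59 to 0.0025 for Gabpa.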
